A study of Homo sapiens with 8 samples.

Results

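A set of 9 genes was expressed in one of a pair of HCT116 cell lines and nearly silent in the other, and is described here across both lines and both treatments. PXDN, SYK, NFIB, MECOM and PROM1 were nearly silent in the MED12 E33Q knock-in line (KI), and FLRT3, ANGPT2, FAM50B and CAVIN2 were nearly silent in the wild-type line (WT). They were picked from the measured difference between the lines, as named near on-off genes with no stated numerical threshold, so this difference is given below as a description with no test. The SEs and counting intervals of this difference do not allow for the picking. All 9 symbols were matched to 1 gene ID each among the 40295 gene IDs of the table, and all 9 were among the 16519 IDs that passed the filter on low counts. Each passed because of the line in which it is high.

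HCT116 is a human colorectal cancer cell line. The knock-in line carries the E33Q change in MED12, introduced with CRISPR-Cas9. MED12 is a subunit of the Mediator kinase module, which also contains the kinase CDK8. The 4 groups were KI cells given 5 ng/ml interferon-gamma (IFN-γ) for 24 h, KI cells left untreated (0 h), WT cells given 5 ng/ml IFN-γ for 24 h, and WT cells left untreated (0 h), with 2 libraries of rRNA-depleted total RNA in each. Only 1 knock-in line is named, so the E33Q change and other differences between the cell clones cannot be told apart. Treated cells were all collected at 24 h and untreated cells all at 0 h, so IFN-γ and time in culture cannot be told apart either. The labels do not say whether the 2 libraries of a group came from separate cultures, so the p-values measure the spread between these libraries, which may be technical. RNA was taken from whole cultures, in which fewer cells expressing a gene and less RNA per cell cannot be told apart.

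On GRCh38, PXDN lies on chromosome 2 at 1631887 to 1744852 (minus strand), SYK on chromosome 9 at 90801787 to 90898549 (plus), NFIB on chromosome 9 at 14081843 to 14398983 (minus), MECOM on chromosome 3 at 169083499 to 169663618 (minus) and PROM1 on chromosome 4 at 15963076 to 16084378 (minus). Of the genes nearly silent in WT cells, FLRT3 lies on chromosome 20 at 14322988 to 14337616 (minus), ANGPT2 on chromosome 8 at 6499651 to 6563409 (minus), FAM50B on chromosome 6 at 3849373 to 3851320 (plus) and CAVIN2 on chromosome 2 at 191834302 to 191847255 (minus). FLRT3 sits inside MACROD2 and ANGPT2 inside MCPH1, each on the opposite strand. The sources used here do not say whether the counting used strand, so reads of such pairs may not be separated.

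The 9 genes belong to different pathways. PXDN encodes peroxidasin, which crosslinks collagen IV in basement membranes, and SYK is a cytoplasmic tyrosine kinase best known downstream of immune receptors and also made in some epithelial cells. NFIB, of the nuclear factor I family, and MECOM, of the PRDM family, are transcription factors, and PROM1 encodes CD133, a pentaspan membrane protein used as a marker of stem-like cells in colon tumours. FLRT3 is a membrane protein that binds latrophilins and UNC5 receptors and acts with FGF receptors. ANGPT2 is a secreted ligand of the receptor TEK (TIE2) made mainly by endothelial cells. FAM50B is an intronless relative of FAM50A whose paternal copy is the expressed one in many human tissues, and CAVIN2 is a coat protein of caveolae, the small invaginations of the plasma membrane that caveolins form.

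The set of RefSeq (GRCh38.p14) promoter windows used here held 24 windows for 8 of the 9 genes. Each ran from 250 bases before a transcription start to 50 bases after it. The set held no window for ANGPT2. The 4 genes with a single window are shown because each has 1 annotated start, so the window is unambiguous, and because they include both CG-rich and CG-poor promoters. Each is written 5′ to 3′ on the gene's own strand, with every CG dinucleotide, the site of DNA methylation in human cells, in capitals. The windows are chr2:1744466-1744765 (minus strand) for PXDN, chr20:14337563-14337862 (minus) for FLRT3, chr6:3849123-3849422 (plus) for FAM50B and chr2:191847039-191847338 (minus) for CAVIN2.
PXDN: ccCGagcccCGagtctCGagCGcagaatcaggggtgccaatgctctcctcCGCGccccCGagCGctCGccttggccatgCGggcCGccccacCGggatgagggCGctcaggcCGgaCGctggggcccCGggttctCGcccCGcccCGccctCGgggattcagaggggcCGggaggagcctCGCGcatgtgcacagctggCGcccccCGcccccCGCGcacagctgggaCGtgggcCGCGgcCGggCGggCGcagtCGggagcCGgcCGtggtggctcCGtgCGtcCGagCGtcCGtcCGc
FLRT3: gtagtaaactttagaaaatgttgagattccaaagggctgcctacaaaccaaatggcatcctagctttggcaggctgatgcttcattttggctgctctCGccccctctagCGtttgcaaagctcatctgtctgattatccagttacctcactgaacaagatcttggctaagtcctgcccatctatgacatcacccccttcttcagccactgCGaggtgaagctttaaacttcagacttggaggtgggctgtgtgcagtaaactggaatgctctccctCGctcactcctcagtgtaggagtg
FAM50B: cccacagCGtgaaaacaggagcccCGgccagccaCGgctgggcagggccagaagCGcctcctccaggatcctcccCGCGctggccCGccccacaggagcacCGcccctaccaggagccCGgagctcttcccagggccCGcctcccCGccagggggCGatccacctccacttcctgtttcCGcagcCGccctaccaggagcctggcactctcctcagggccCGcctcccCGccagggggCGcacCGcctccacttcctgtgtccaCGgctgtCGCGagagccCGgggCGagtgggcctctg
CAVIN2: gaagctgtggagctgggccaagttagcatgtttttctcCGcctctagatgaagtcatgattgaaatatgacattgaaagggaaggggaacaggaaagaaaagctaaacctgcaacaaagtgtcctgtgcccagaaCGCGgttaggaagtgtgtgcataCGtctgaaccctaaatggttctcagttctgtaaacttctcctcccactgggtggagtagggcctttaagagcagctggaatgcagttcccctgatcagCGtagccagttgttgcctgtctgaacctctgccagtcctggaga

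The PXDN window held 42 CG dinucleotides at 78.3% GC, with a CG frequency 0.913 times that expected from its base composition. FAM50B, the gene with the imprinted promoter, had 23 CG dinucleotides at 73.7% GC and a ratio of 0.59. FLRT3 and CAVIN2 had CG-poor windows, with 4 CG dinucleotides at 48.7% GC in FLRT3 and 5 at 49.3% GC in CAVIN2. Over all 35116 RefSeq windows the median was 14 CG dinucleotides and 58.7% GC, and these 4 windows lay on both sides of it. At a GC content of at least 50% and a ratio of at least 0.6, 11 of the 24 windows of these genes were CpG-island-like, against 46.9% of all windows. This is near the share over all windows. The islands were in PXDN (1 of 1 window), SYK (1 of 3), NFIB (4 of 10), MECOM (2 of 3) and PROM1 (3 of 4). None of the 3 windows of FLRT3, FAM50B and CAVIN2 passed, but FAM50B missed the cut only narrowly, at a ratio of 0.59. So few windows do not allow the genes nearly silent in KI cells to be set against those nearly silent in WT cells.

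Motifs linked to transcription starts and to IFN-γ signalling were searched on both strands of the same windows. The TATA box TATAAA was in 0 of the 24 windows and in 11.5% of all windows. TTCNNNGAA, the palindrome bound by STAT dimers, was in 1 window of MECOM and in 7.66% of all windows. GAAA followed after any 2 bases by GAAA, a core of the interferon-stimulated response element, was in 1 window of NFIB and in 3.57% of all windows. A match is a run of letters, not a shown binding site, and its absence covers only these windows.

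The libraries held 20873145 to 28006378 estimated counts over genes, and values are given as CPM, a count scaled to a fixed library size, with TMM factors that put the libraries on a common scale. Plasma-cell transcripts stood apart: 12 listed markers such as immunoglobulin genes summed to 273 and 345 CPM in the second treated and second untreated KI library and to 349 and 394 CPM in both untreated WT libraries, against 1.35 to 2.34 CPM in the other 4. Counted reads were also richer in GC with IFN-γ, at 47.9 to 48.1% in treated against 45.2 to 46.6% in untreated libraries, and ERCC spike-in RNA took 0.228 to 0.271% of counts in treated against 0.11 to 0.141% in untreated ones. MED12 itself measured 11.2 to 33.3 CPM in KI and 14.2 to 34.3 CPM in WT libraries; a point change leaves no trace in gene counts, so this does not check the genotype. Epithelial markers summed to 2339 to 5177 CPM in every library, with 2 of 9 tested called higher in KI cells and 2 lower in the mean line difference. Endothelial markers summed to 29.7 to 51.1 CPM (1 of 6 tested called, CLDN5 at 0 throughout), other leukocyte markers to 2.34 to 10.4 CPM (0 of 4, with CD3D, MS4A1, NKG7 and FCGR3A at 0) and fibroblast markers to 3.61 to 7.58 CPM (1 of 5, COL3A1, named after its value was seen, with LUM, PDGFRA and POSTN at 0).

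Across the 36 library values of these genes in their silent line, CPM ran from 0 to 1.52 and counts from 0 to 37. In the expressing line the 36 values ran from 4.65 to 62.6 CPM and 103 to 1249 counts. No gene had a silent-line library at or above an expressing-line library, with or without IFN-γ, which is what they were picked for. The share of all genes with no such overlap was not counted, and 2 libraries against 2 can separate without a true difference. Both limits also hold for the treated and untreated libraries compared below. By the different measure of a test, 2.91% of all tested genes were called between the lines with IFN-γ and 8.43% when untreated (edgeR quasi-likelihood test, adjusted p at most 0.05). In 3 of these silent-line libraries the count was 0, which allows up to 3 counts in that library. Counting intervals and this limit cover counting error only.

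**Figure D1:**
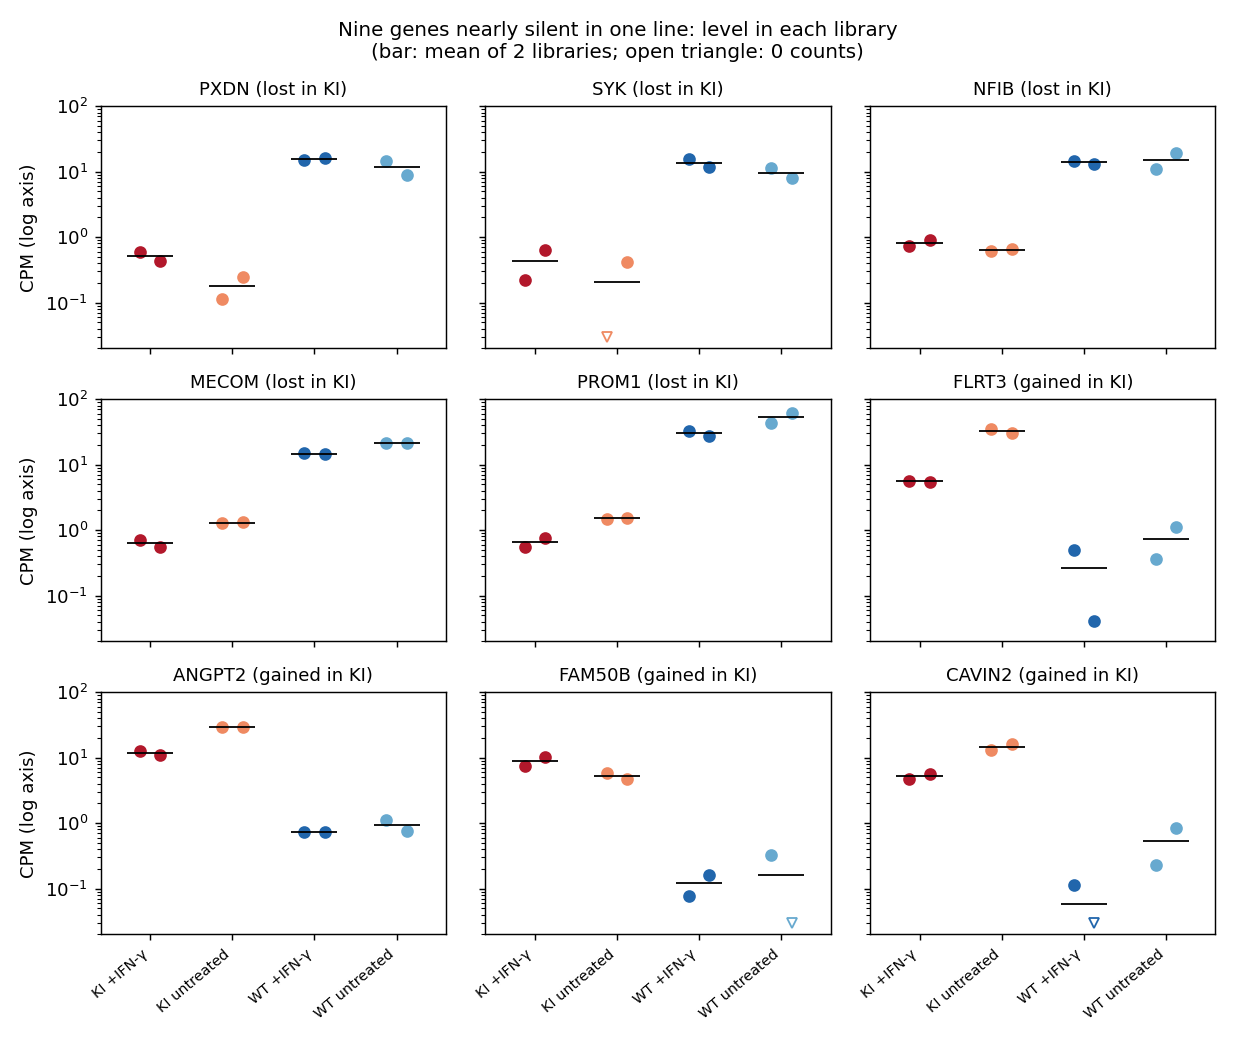
Level of each gene in each library in CPM on a log axis, with the 4 groups along the x axis, a point per library, a bar at the mean of 2 libraries and an open triangle for 0 counts. The 5 genes in the first 5 panels are at 0 to 1.52 CPM in KI cells, and the 4 genes in the last 4 panels are at 0 to 1.1 CPM in WT cells.

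PROM1 was the most abundant of the genes nearly silent in KI cells. It had 0.549 and 0.758 CPM in treated KI, 1.5 and 1.52 CPM in untreated KI, 33.1 and 27.6 CPM in treated WT and 43.0 and 62.6 CPM in untreated WT libraries. All 4 KI libraries were far below all 4 WT libraries, and within each line both treated libraries were below both untreated ones. The KI mean was 2.15% of the WT mean with IFN-γ and 2.86% untreated, a log2 difference of -5.53 ± 0.28 and -5.12 ± 0.26 (SE, n = 2 and 2). Its counts in KI cells, 15 to 37 per library, were above 0 in every library.

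MECOM followed the same order over the 4 groups at a lower level. It had 0.696 and 0.558 CPM in treated KI, 1.28 and 1.31 CPM in untreated KI, 15.1 and 14.5 CPM in treated WT and 21.8 and 21.4 CPM in untreated WT libraries. The 4 groups did not overlap, and the largest replicate SD was 0.406 CPM. The KI mean was 4.23% of the WT mean with IFN-γ and 6.01% untreated (log2 difference -4.55 ± 0.23 and -4.05 ± 0.22). MECOM overlaps RPL22P1, a processed pseudogene counted at 37.6 ± 8.45 CPM in treated and 120 ± 1.02 CPM in untreated KI cells, against 42.6 ± 1.78 and 101 ± 41.2 CPM in WT cells (SD, n = 2), a gene with a log2 difference of 0.03 between the lines.

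PXDN, the collagen-crosslinking peroxidase, had 0.586 and 0.439 CPM in treated KI, 0.111 and 0.246 CPM in untreated KI, 15.3 and 16 CPM in treated WT and 14.6 and 8.87 CPM in untreated WT libraries. In each line both treated libraries were above both untreated ones, narrowly so in WT cells, where the untreated libraries spread widely (11.7 ± 4.07 CPM, SD). The KI mean was 3.27% of the WT mean with IFN-γ and 1.52% untreated (log2 difference -4.91 ± 0.36 and -5.93 ± 0.42), from 27 and 8 counts in KI against 794 and 495 in WT groups.

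NFIB, the transcription factor, had 0.733 and 0.918 CPM in treated KI, 0.613 and 0.657 CPM in untreated KI, 14.5 and 13.3 CPM in treated WT and 11.1 and 19.5 CPM in untreated WT libraries. Untreated WT libraries bracketed the treated ones. The KI mean was 5.94% of the WT mean with IFN-γ and 4.15% untreated (log2 difference -4.07 ± 0.33 and -4.57 ± 0.35), so NFIB kept a trace of 11 to 23 counts in every KI library.

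SYK had 0.22 and 0.638 CPM in treated KI, 0 and 0.41 CPM in untreated KI, 15.5 and 12.0 CPM in treated WT and 11.4 and 7.97 CPM in untreated WT libraries. Its KI mean was 3.12% of the WT mean with IFN-γ and 2.12% untreated (log2 difference -5.00 ± 0.66 and -5.37 ± 0.73). SYK is also a B-lineage gene, and the KI libraries with plasma-cell transcripts had 16 and 10 SYK counts, against 6 and 0 in the KI libraries without them; the part of those cells in the residual SYK signal was not tested. In WT cells the treated libraries, which lack these transcripts, had the higher SYK values, but there the transcripts and the treatment cannot be told apart.

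Among the genes nearly silent in WT cells, FLRT3 had the highest level in untreated KI cells. It had 5.57 and 5.51 CPM in treated KI, 34.9 and 30.6 CPM in untreated KI, 0.496 and 0.0408 CPM in treated WT and 0.368 and 1.10 CPM in untreated WT libraries. Untreated KI cells stood above treated KI cells with no overlap, and the WT libraries of both treatments overlapped at 1 to 22 counts. The WT mean was 4.85% of the KI mean with IFN-γ and 2.24% untreated (log2 difference 4.31 ± 0.60 and 5.49 ± 0.55). The surrounding gene MACROD2 was not called (mean log2 difference 0.28 ± 0.35, edgeR adjusted p = 0.644), with 2.02 ± 0.878 and 1.83 ± 0.0916 CPM in treated and untreated KI cells and 1.68 ± 0.589 and 1.49 ± 0.0905 CPM in treated and untreated WT cells (SD, n = 2).

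ANGPT2, the TEK ligand, had 12.6 and 10.9 CPM in treated KI, 29.9 and 29.4 CPM in untreated KI, 0.725 and 0.735 CPM in treated WT and 1.10 and 0.752 CPM in untreated WT libraries. The WT mean was 6.2% of the KI mean with IFN-γ and 3.13% untreated (log2 difference 4 ± 0.24 and 4.98 ± 0.25). In the same libraries the gene that contains it, MCPH1, had 19.6 and 32.4 CPM in treated and untreated KI cells and 23.0 and 34.6 CPM in treated and untreated WT cells, a log2 difference of -0.16. Estimated ANGPT2 counts were not whole numbers in any of the 8 libraries, as happens where reads are shared out between transcripts.

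CAVIN2 had 4.65 and 5.70 CPM in treated KI, 12.9 and 16.1 CPM in untreated KI, 0.114 and 0 CPM in treated WT and 0.23 and 0.852 CPM in untreated WT libraries. Untreated KI libraries were above treated ones, and the treated WT libraries together held 3 counts, the fewest of any gene and group here. The ratio of KI to WT with IFN-γ was therefore 87.2, with a 95% counting interval of 29.5 to 425, and untreated the log2 difference was 4.75 ± 0.59, with the WT mean at 3.72% of the KI mean.

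FAM50B was the lowest of the expressed genes in untreated KI cells. It had 7.44 and 10.2 CPM in treated KI, 5.74 and 4.68 CPM in untreated KI, 0.0763 and 0.163 CPM in treated WT and 0.322 and 0 CPM in untreated WT libraries. Treated KI libraries were above untreated ones, the opposite order to FLRT3, ANGPT2 and CAVIN2, and both WT groups lay at 0 to 7 counts a library. The WT mean was 1.36% of the KI mean with IFN-γ and 3.09% untreated (log2 difference 6.15 ± 0.77 and 4.93 ± 0.75).

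Levels of different genes were compared roughly, per kilobase of the longest annotated transcript. The transcripts in use in these cells were not determined, so the order depends on that length. PROM1 led in untreated WT cells at 12.1 ± 3.19 CPM per kb (SD, n = 2) and FLRT3 in untreated KI cells at 6.86 ± 0.639. In untreated KI cells ANGPT2 at 5.48 ± 0.0644 and CAVIN2 at 4.50 ± 0.701 came next, and FAM50B was last at 2.69 ± 0.387 CPM per kb. With IFN-γ the order in KI cells turned, with FAM50B highest at 4.56 ± 1.01 and FLRT3 lowest at 1.16 ± 0.00931 CPM per kb; ANGPT2 at 2.17 ± 0.228 and CAVIN2 at 1.60 ± 0.23 lay between. In untreated WT cells MECOM at 3.77 ± 0.0489 CPM per kb was second to PROM1, and SYK, NFIB and PXDN at 1.93, 1.86 and 1.72 did not differ beyond their SDs of 0.485, 0.725 and 0.597.

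Ranked by the fitted mean line difference among genes with at least 5 CPM in a group, PXDN, PROM1, SYK, NFIB and MECOM stood 5th to 9th from the lower end. CAVIN2, FAM50B, FLRT3 and ANGPT2 stood 9th, 10th, 16th and 18th from the upper end. A cut was also set after the values were seen: at least 5 CPM in both groups of one line, and the higher group mean of the other line under 10% of the lower group mean of the first. It took all 5 of the first set and also GALNT14, a mucin-type glycosyltransferase at 0.196 and 0.125 CPM in treated and untreated KI cells and 18.7 and 14.7 CPM in treated and untreated WT cells, and CEMIP, a hyaluronan-degrading protein at 0.744 and 0.506 CPM in KI cells and 9.29 and 8.42 CPM in WT cells. Of the second set it took ANGPT2 and FAM50B, while FLRT3 and CAVIN2, whose levels fell with IFN-γ, were just outside by that comparison across treatments, and 6 further genes, ANKRD1, MAGEB1, MUC13, PRF1, SLC2A3 and SPARC.

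With IFN-γ, 6 of the 9 genes changed in KI cells and 3 of 9 in WT cells (edgeR quasi-likelihood F test, p adjusted by Benjamini-Hochberg over all genes tested). Over all tested genes 52.1% were called in KI and 37.9% in WT cells, so these counts are near the background and say nothing particular about the 9 genes. In KI cells PXDN rose and MECOM, PROM1, FLRT3, ANGPT2 and CAVIN2 fell, beside 26.4% of all genes called higher and 25.8% called lower. In WT cells MECOM, PROM1 and CAVIN2 fell, beside 17.1% of all genes called higher and 20.8% lower. Without both second KI libraries, which held plasma-cell transcripts, FLRT3 alone was called in KI cells; in WT cells the transcripts were in every untreated and no treated library, so they cannot be told apart from the response. The median log2 response of all genes was 0.12 in KI and 0.08 in WT cells, and with scaling to ERCC spike-in totals it was -0.41 and -0.72.

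**Figure D2:**
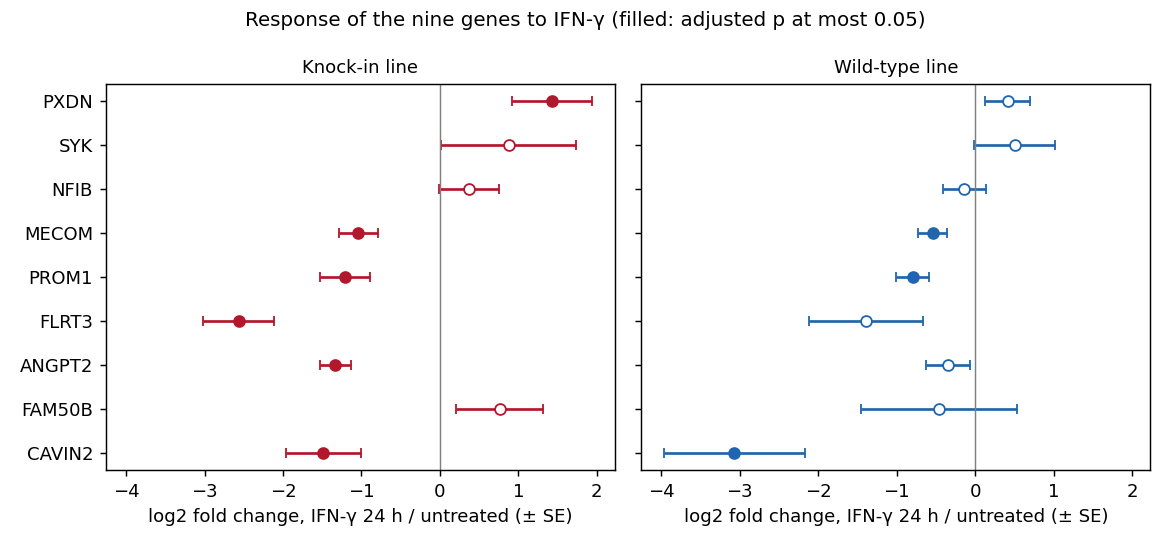
Fitted log2 fold change of each gene with IFN-γ over untreated on the x axis, with its standard error, in KI cells (left) and WT cells (right); filled points have an adjusted p of at most 0.05. FLRT3 in KI cells is at -2.56, and CAVIN2 in WT cells is at -3.07, from 3 against 22 counts.

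FLRT3 and ANGPT2 gave the firmest responses, both in KI cells, where they are expressed. FLRT3 fell by 2.56 ± 0.45 on the log2 scale, to 5.54 ± 0.0445 CPM in treated against 32.8 ± 3.05 CPM in untreated KI cells (SD, n = 2 each; edgeR adjusted p = 0.00129). ANGPT2 fell by 1.33 ± 0.20, to 11.8 ± 1.24 CPM in treated against 29.7 ± 0.349 CPM in untreated KI cells (edgeR adjusted p = 0.000534). Both kept their call when any 1 of the 8 libraries was left out, with a largest edgeR adjusted p of 0.0118 for FLRT3 and 0.00974 for ANGPT2. Without both second KI libraries FLRT3 was at -2.65 (edgeR adjusted p = 0.0357) and ANGPT2 at -1.24 (edgeR adjusted p = 0.053), a fit in which a lone library per KI group is assumed to vary like the other groups. With the GC and length trend of each library removed, the log2 changes were -2 for FLRT3 (edgeR adjusted p = 0.0031) and -0.81 for ANGPT2 (edgeR adjusted p = 0.0103).

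CAVIN2 fell in KI cells by 1.49 ± 0.48 on the log2 scale, to 5.18 ± 0.744 CPM in treated against 14.5 ± 2.26 CPM in untreated cells (edgeR adjusted p = 0.0258). This call was lost without any 1 of the 4 KI libraries (-1.64 to -1.32, largest edgeR adjusted p = 0.151) and with the GC and length trend removed (-1.11, edgeR adjusted p = 0.0781). Its call in WT cells (edgeR adjusted p = 0.0244) rests on 3 counts in treated against 22 in untreated cells, a ratio of 0.112 with a 95% counting interval of 0.0215 to 0.373, and was lost without the second untreated (-1.87, edgeR adjusted p = 0.203) or the second treated WT library (-2.17, edgeR adjusted p = 0.108). With only the WT groups compared, CAVIN2 did not pass the low-count filter and was not tested, so its WT call depends on the KI libraries. In both lines the treated libraries lay below the untreated ones.

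PROM1 and MECOM fell in both lines, at levels that differ many-fold. PROM1 fell by 1.21 ± 0.32 on the log2 scale in KI cells, where it is nearly silent (edgeR adjusted p = 0.0110), and by 0.80 ± 0.21 in WT cells, where it is expressed (edgeR adjusted p = 0.0150). Leaving out the second untreated KI (-1.20) or first treated KI library (-0.99) ended the KI call, with an edgeR adjusted p of 0.0565 and 0.0869. Leaving out the second untreated WT (-0.50) or second treated WT library (-0.67) ended the WT call, with an edgeR adjusted p of 0.0926 and 0.111. MECOM fell by 1.04 ± 0.25 in KI cells (edgeR adjusted p = 0.00629; -0.90 and 0.0659 without the second treated KI library) and by 0.54 ± 0.18 in WT cells (edgeR adjusted p = 0.0397). The WT call of MECOM was lost without any of 7 of the 8 libraries, the first untreated WT library being the exception, at -0.62 to -0.51 and a largest edgeR adjusted p of 0.171. With only the groups compared, the KI calls were lost for PROM1 (-1.30, edgeR adjusted p = 0.0501) and MECOM (-1.14, edgeR adjusted p = 0.0769). In that run the WT call was lost for MECOM (-0.54, edgeR adjusted p = 0.0791) and kept for PROM1 (-0.80, edgeR adjusted p = 0.0254).

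PXDN rose in KI cells by 1.43 ± 0.51 on the log2 scale, from 27 counts in treated against 8 in untreated libraries (edgeR adjusted p = 0.0386). The call was lost without any 1 of the KI or treated WT libraries (1.04 to 2.15, largest edgeR adjusted p = 0.190), and the change was 0.56 with the GC and length trend removed (edgeR adjusted p = 0.477) and 0.92 with ERCC scaling (edgeR adjusted p = 0.290). It was also lost with only the groups compared (1.35, edgeR adjusted p = 0.140). PXDN transcripts are rich in GC, at 55.2%, as are those of FAM50B at 58.7%, whereas those of FLRT3, ANGPT2 and NFIB are at 38.7 to 39.5%. In WT cells PXDN was at 15.7 ± 0.471 CPM in treated and 11.7 ± 4.07 CPM in untreated libraries (log2 0.41 ± 0.29, edgeR adjusted p = 0.284).

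SYK, NFIB and FAM50B did not pass the test in either line, although some alternatives called one of them. SYK was called in KI cells without the second untreated KI library (edgeR adjusted p = 0.0255), which leaves that group at 0 counts, FAM50B in KI cells with only the groups compared (0.67, edgeR adjusted p = 0.0463), and NFIB in WT cells with ERCC scaling (-0.88, edgeR adjusted p = 0.0296). With all libraries SYK was at log2 0.88 ± 0.86 in KI and 0.50 ± 0.52 in WT cells (edgeR adjusted p = 0.435 and 0.479). NFIB was at 0.37 ± 0.38 in KI and -0.14 ± 0.27 in WT cells (edgeR adjusted p = 0.461 and 0.728). FAM50B was at 0.76 ± 0.55 in KI cells, with 8.82 ± 1.96 CPM in treated against 5.21 ± 0.75 CPM in untreated libraries (edgeR adjusted p = 0.287), and at -0.46 ± 0.99 in WT cells on 6 and 7 counts. The KI change of FAM50B was 0.25 with the GC and length trend removed (edgeR adjusted p = 0.752). It was 0.23 with ERCC scaling (edgeR adjusted p = 0.821). Among the genes that fell in KI cells, FLRT3 and ANGPT2 did not pass the test in WT cells, where each is nearly silent (log2 -1.39 ± 0.73 and -0.35 ± 0.28, edgeR adjusted p = 0.161 and 0.399). FLRT3 was called lower in WT cells with no low-count filter (-1.38, edgeR adjusted p = 0.00908), without the first untreated (-2.07, edgeR adjusted p = 0.0499) and without the first treated WT library (-3.99, edgeR adjusted p = 0.0270), within a range of -3.99 to -0.42 over the left-out libraries, and ANGPT2 with ERCC scaling (-1.16, edgeR adjusted p = 0.0286).

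The responses of the lines to IFN-γ were compared directly as the KI response minus the WT response. None of the 9 genes was called (edgeR adjusted p 0.688 to 0.920), and neither was any of the 16519 genes tested (0%), although 1119 had an unadjusted p under 0.05 and DESeq2 called 4. ANGPT2 stood at -0.98 ± 0.34, the largest difference relative to its SE (edgeR adjusted p = 0.688). The others ran from -1.18 ± 0.89 for FLRT3 to 1.58 ± 1.03 for CAVIN2. These contrasts share the libraries of the line differences that picked the genes, and for a gene near 0 in one line they are wide.

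Families and partners of each gene were listed from general knowledge, but with earlier results of these data known. The counts of calls per list are therefore a description and no independent test. The mean line difference was tested over all genes, where 13.9% were called, 7% higher and 6.87% lower in KI cells. The median log2 difference of all genes was -0.01. With ERCC scaling, 10 of the called genes named from the lists and neighbours lost their call. These were CAVIN3, CBL, CBLB, CDKN1C, FGFR3, HSPG2, KRT18, LOXL2, RUNX1 and the neighbour PXDC1. Without both second KI libraries, 15 of the 25 called genes that the naming rule took from the lists and neighbours lost their call, and none of the 25 turned sign. Among the other nuclear factor I genes, NFIA was called lower, at 15.2 ± 0.706 and 12.3 ± 1.02 CPM in treated and untreated KI cells and 33.9 ± 2.48 and 27.6 ± 0.117 CPM in treated and untreated WT cells, a log2 difference of -1.17 ± 0.11 (edgeR adjusted p = 0.000197). NFIC at -0.54 ± 0.20 and NFIX at -0.47 ± 0.19 did not pass (edgeR adjusted p = 0.112 and 0.123), so 1 of 3 relatives was called lower and the list median was -0.54.

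**Figure D3:**
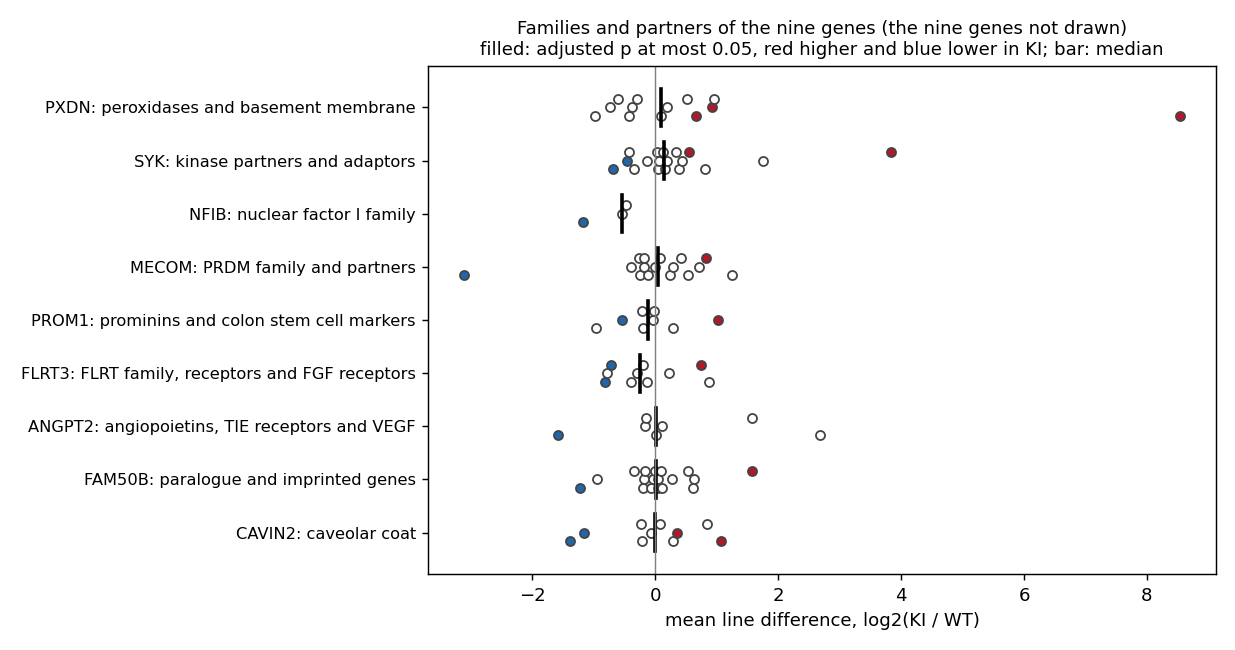
Mean line difference, log2 of KI over WT, of the tested genes in each list, with 1 row per list, a point per gene, red or blue fill for an adjusted p of at most 0.05 and a bar at the list median; the 9 genes themselves are not drawn. SPARC lies at the far right of the first row, where its fitted value rests on a WT group at 0, and EHMT2 at -3.10 in the row of MECOM.

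The caveolar genes moved in both directions around CAVIN2. CAV1, the main structural caveolin, was at 46.0 ± 0.038 and 121 ± 4.83 CPM in treated and untreated KI cells and 129 ± 4.05 and 295 ± 78.1 CPM in treated and untreated WT cells (log2 -1.39 ± 0.12, edgeR adjusted p = 0.000147). CAV2, its partner, was at 53.4 ± 4.24 and 92.0 ± 1.4 CPM in KI against 121 ± 2.82 and 203 ± 11.4 CPM in WT cells (log2 -1.16 ± 0.09, edgeR adjusted p = 5.75e-05). CAVIN3 was higher in KI cells by 1.07 ± 0.20 (edgeR adjusted p = 0.00944, and 0.0879 with ERCC scaling, where it was 0.84), and PACSIN2, a membrane-bending protein named here after its value was seen, by 0.36 ± 0.10 (edgeR adjusted p = 0.0398). CAVIN1, required to form caveolae, was at 175 ± 4.51 and 87.0 ± 25.3 CPM in KI and 149 ± 9.06 and 91.5 ± 15.2 CPM in WT cells (log2 0.08 ± 0.14, edgeR adjusted p = 0.761), and CAVIN4, the muscle form, was at 0.85 ± 0.51 (edgeR adjusted p = 0.308). Of the 10 tested, 2 were called higher and 2 lower, with a median of 0.00.

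Of 13 tested genes listed with PXDN as peroxidases or basement membrane components, 3 were called higher in KI cells and 0 lower, at a median of 0.09. SPARC, a matrix glycoprotein that binds collagen, was itself near on-off, at 9.73 ± 1.06 and 14.9 ± 3.15 CPM in treated and untreated KI cells and 0 and 0.198 ± 0.215 CPM in treated and untreated WT cells. With IFN-γ its KI level was at least 82.5-fold higher, taking a floor of 3 counts per WT library. LOXL2, a collagen crosslinking oxidase, was higher by 0.93 ± 0.15 (edgeR adjusted p = 0.00479; 0.72 and 0.0714 with ERCC scaling), and HSPG2, perlecan, by 0.66 ± 0.16 with edgeR adjusted p = 0.0256, a call lost without any of 5 libraries. PXDNL, the closest relative of PXDN, had 3 and 0 counts in treated and untreated KI cells and 0 and 4 in WT cells, and was not tested.

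In the SYK list, 2 of 18 tested genes were called higher and 2 lower, at a median of 0.14. ZAP70, the relative of SYK in T cells, had 9 and 1 counts in treated and untreated KI and 8 and 0 counts in treated and untreated WT cells. LYN and CBL were lower in KI cells and CBLB higher, by log2 -0.69, -0.45 and 0.55, each a call lost without any of 4, 7 and 6 libraries. LCK, a lymphocyte kinase named after its values were seen, was at 1.11 and 1.78 CPM in treated and untreated KI and 0.0395 and 0.207 CPM in treated and untreated WT cells.

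In the MECOM list of PRDM relatives and corepressor partners, 1 of 16 was called higher and 1 lower, at a median of 0.04. RUNX1, a partner transcription factor, was higher in KI cells by 0.83 ± 0.13 (edgeR adjusted p = 0.00342; 0.64 and 0.0534 with ERCC scaling). EHMT2, the histone H3 lysine methyltransferase G9a, was at 2.27 ± 1.19 and 1.5 ± 0.322 CPM in treated and untreated KI and 20.6 ± 5.93 and 12.1 ± 5.81 CPM in treated and untreated WT cells (log2 -3.10 ± 0.32, edgeR adjusted p = 0.000382). EHMT2 lies in the MHC region, for which the reference has alternative copies, so its counts may be split between IDs and its level is uncertain. Whether this bears on the line difference was not tested. PRDM16, the closest relative of MECOM, was at 0.25 ± 0.30 (edgeR adjusted p = 0.627).

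Among prominins and colon stem cell markers, CD24 was higher in KI cells by 1.02 ± 0.15 (edgeR adjusted p = 0.00223) and EPCAM lower by log2 -0.54 ± 0.10 (edgeR adjusted p = 0.00906, lost without either treated KI library), 1 of 8 tested in each direction at a median of -0.12. PROM2, the only other prominin, was at 2.39 ± 0.738 and 1.61 ± 0.645 CPM in treated and untreated KI cells and 4.87 ± 0.241 and 2.96 ± 1.85 CPM in treated and untreated WT cells (log2 -0.96 ± 0.36, edgeR adjusted p = 0.106). LGR5, the marker of intestinal stem cells, had 0 counts in all 8 libraries.

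Of 10 tested genes listed with FLRT3, 1 was called higher and 2 lower, at a median of -0.25. UNC5B and ADGRL1 (latrophilin 1), receptors for FLRT proteins, were at log2 -0.82 ± 0.20 and -0.72 ± 0.15, and FGFR3 at 0.75 ± 0.17 (edgeR adjusted p = 0.0242, 0.0133 and 0.0190), calls lost without any of 6, 4 and 5 libraries. FLRT2 was at -0.39 ± 0.38 (edgeR adjusted p = 0.542), and FLRT1 had 2 and 1 counts in KI and 0 in WT cells.

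TEK, the receptor of ANGPT2, and its relative TIE1 were near 0 in both lines, including the KI cells that express ANGPT2. TEK had 4 and 3 counts in treated and untreated KI and 5 and 0 counts in treated and untreated WT cells, and TIE1 had 13 and 16 counts in KI against 8 and 13 in WT cells. ANGPT1, the other main TEK ligand, had 1 and 0 counts in KI and 6 and 0 in WT cells, and ANGPT4 was at 1.57 ± 0.94 (edgeR adjusted p = 0.304). Of the 12 endothelial markers, 6 were tested and 1 was called, VWF, at 0.913 and 0.257 CPM in treated and untreated KI and 0.278 and 0 CPM in treated and untreated WT cells (named after its value was seen). ANGPTL4, an angiopoietin-like inhibitor of lipoprotein lipase, was lower in KI cells by log2 -1.57 ± 0.17 (edgeR adjusted p = 0.000471), the 1 of 7 tested genes called, at a list median of 0.02.

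FAM50A, the X-linked relative from which FAM50B arose, was not called between the lines. It was at 17.6 ± 0.576 and 14.1 ± 1.69 CPM in treated and untreated KI and 18.7 ± 4.58 and 12.6 ± 3.03 CPM in treated and untreated WT cells (log2 0.04 ± 0.16, edgeR adjusted p = 0.905). Among 18 tested genes in the list of FAM50A and other imprinted genes, PHLDA2 was lower by log2 -1.23 ± 0.23 (edgeR adjusted p = 0.00879, and 0.0909 without both second KI libraries) and CDKN1C was called higher (1.57 ± 0.43, edgeR adjusted p = 0.0405, lost without any of 6 libraries), with a median of 0.02. CDKN1C differed with IFN-γ, at 5.06 ± 3.79 CPM in treated KI against 0.571 ± 0.0564 CPM in treated WT cells (log2 3.13 ± 0.64, edgeR adjusted p = 0.0347), while untreated it was at 3.12 ± 0.869 CPM in KI against 3.09 ± 1.61 CPM in WT cells (log2 0.01 ± 0.58, edgeR adjusted p = 0.997).

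Neighbouring genes were read to see whether the difference extended beyond each gene. The 36 nearest tested protein-coding genes, 2 on each side, lay 24.3 to 6193 kb away, with a median of 506 kb. Their mean line differences ran from -0.82 to 0.88 on the log2 scale with a median of -0.13, against -5.42 to -4.30 for the genes nearly silent in KI and 4.49 to 5.54 for those nearly silent in WT cells. Of the 36, 3 were called, 2 higher and 1 lower in KI cells, where 13.9% of all genes were called. These were PXDC1 beside FAM50B (0.75 ± 0.18, edgeR adjusted p = 0.0232), SLC39A10 beyond CAVIN2 (0.61 ± 0.14, edgeR adjusted p = 0.0175) and DMAC1 beyond NFIB (log2 -0.53 ± 0.12, edgeR adjusted p = 0.0205), and each was lost without any of 4 or 5 of the libraries. The closest neighbour, FGFBP1 at 24.3 kb from PROM1, was at 5.01 ± 0.481 and 20.5 ± 0.725 CPM in treated and untreated KI and 6.67 ± 1.41 and 16.9 ± 4.73 CPM in treated and untreated WT cells (log2 -0.07 ± 0.17, edgeR adjusted p = 0.825).

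**Figure D4:**
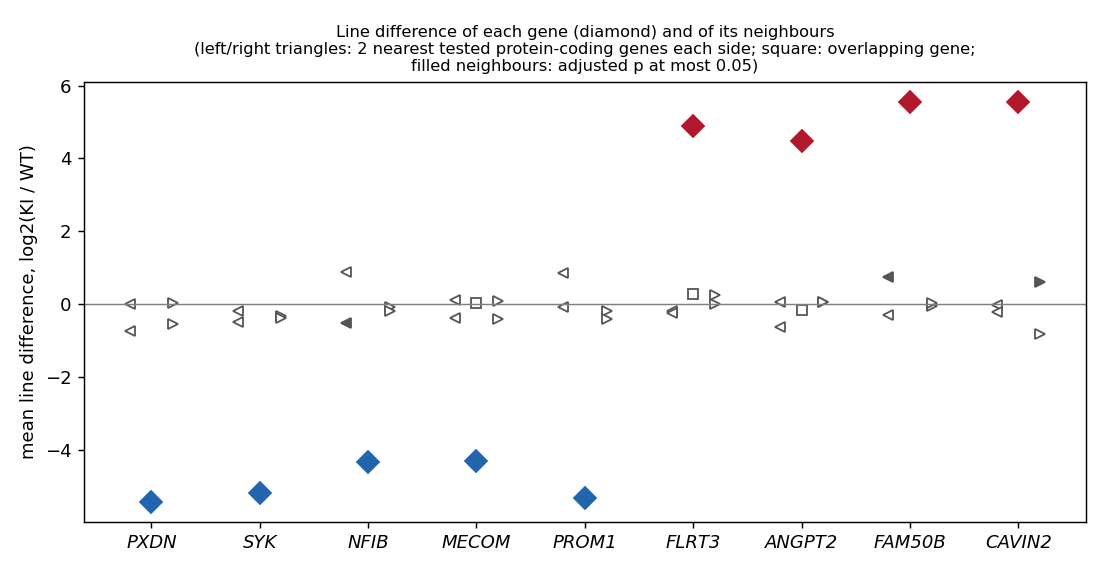
Mean line difference, log2 of KI over WT, on the y axis for each of the 9 genes (diamonds) and for its neighbours (triangles, the 2 nearest tested protein-coding genes on each side; squares, overlapping genes). The diamonds lie beyond -4 or above 4, while the neighbours lie between -0.82 and 0.88.

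Over the 8 libraries, log2 CPM of genes nearly silent in the same line had Pearson r of 0.795 to 0.996 (16 pairs), and of genes from different lines -0.987 to -0.799 (20 pairs), as picking them by line makes likely. The closest pair was MECOM and PROM1 at 0.996, each the most like of all named genes to the other. The genes most like PXDN were GPR63 (r = 0.996) and ABHD14B (0.993), and GPR63 was also the most like SYK (0.990), ahead of PIGM (0.988). NFIB was most like MTUS1 (0.995) and ASPH (0.992), and after each other MECOM was most like CPOX (0.995) and PROM1 like EML4 (0.994). FLRT3 was most like PPM1K (0.991) and DCLK1 (0.987), ANGPT2 like BMP4 (0.995) and STON1 (0.995), FAM50B like RBM24 (0.991) and COL13A1 (0.989), and CAVIN2 like CYP24A1 (0.992) and TMCO3 (0.990). These are descriptions over 8 libraries that share 2 lines and 2 treatments.

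A high r does not mean an on-off difference. DCLK1 had 9.83 and 22.2 CPM in treated and untreated KI against 0.718 and 1.30 CPM in treated and untreated WT cells, a log2 difference of 3.93, whereas PPM1K had 15.0 and 18.3 CPM in KI against 11.2 and 12.2 CPM in WT cells. MTUS1 had 73.3 and 77.4 CPM in treated and untreated KI against 349 and 382 CPM in treated and untreated WT cells, and GPR63 had 3.59 and 2.81 CPM against 10.7 and 9.94 CPM. BMP4, a secreted growth factor, had 146 and 187 CPM in treated and untreated KI against 55.2 and 61.6 CPM in treated and untreated WT cells.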

How the data were processed

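RNA of 8 libraries (2 in each of 4 groups) was analysed from estimated counts per Ensembl gene ID that the authors deposited, made with Trimmomatic and kallisto against GRCh38 per the submitters' processing notes. The sources used here give no version, transcript annotation or strand setting. The 9 genes and the lists of relatives, partners and markers were chosen with earlier results of these data known.

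Counts were rounded, ERCC rows left out, and genes kept by filterByExpr (minimum count 10). All 8 libraries were fitted with edgeR 4.0.16 in R 4.3.3 (TMM scaling, group means, quasi-likelihood F test, Benjamini-Hochberg over 16519 genes, threshold 0.05), which was tested on simulated data. SE is the absolute log2 fold change over the root of F. Totals of 20873145 to 28006378 counts limit the precision of genes near 0.

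Names, positions and transcript lengths came from GENCODE 29 on GRCh38, which named 35583 IDs, and promoter windows from RefSeq (GRCh38.p14). Apart from the 9 genes, the text names the relatives of each, up to 3 called genes per list with at least 5 CPM in a group and the 2 genes of highest Pearson r. Of the 2 nearest tested neighbours on each side it names those called and the closest. Of the overlapping genes it names those that passed the low-count filter. Any other gene is said to be named after its values. Some genes of the FAM50B list are not reported here. The alternatives were DESeq2's size factors, ERCC scaling, DESeq2 1.42.0, no filter, at least 50 counts in 2 libraries, removal of the GC and length trend, only the groups compared, the replicate number as a block, omission of both second KI libraries, and omission of each library in turn.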

Additional observations from a re-analysis of the deposited data

How the results depend on the processing

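The line differences of the 9 genes kept their sign in every alternative run, but their size moved where the silent line has few counts. When a library was left out, the untreated log2 difference ran from -10.8 to -4.54 for SYK and 3.99 to 9.99 for FAM50B, and that with IFN-γ from 3.46 to 6.91 for FLRT3 and 5.43 to 9.90 for CAVIN2; fitted values against 0 counts are no bounds. The number of genes called among the 9 in the KI response was 6, against 1 without both second KI libraries and 3 to 6 when a library was left out. In the WT response it was 3, against 5 with ERCC scaling, 1 with only the groups compared and 0 to 4 when a library was left out. With only the groups compared, CAVIN2 and FAM50B did not pass the low-count filter in WT cells and were not tested. The same held for SYK in KI cells. Over all genes, the KI response had 8613 calls (6327 to 9322 when a library was left out, 5309 with the GC and length trend removed and 3523 without both second KI libraries) and the WT response 6256 (3266 to 7796 when a library was left out). The difference between the responses had 0 calls by edgeR (1119 at an unadjusted p under 0.05), against 4 by DESeq2, 267 with no low-count filter, 5 without both second KI libraries and 0 to 2 when a library was left out.

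The untreated line difference had 1392 calls, against 667 with ERCC scaling, 2291 by DESeq2, 2959 with no filter, 2308 with the GC trend removed, 250 without both second KI libraries, 614 with only the groups compared and 406 to 4815 when a library was left out. With IFN-γ it had 481, and in the same order 195, 881, 1227, 1210, 118, 2427 and 147 to 1111. The mean line difference had 2291, against 1482 with ERCC scaling, 3502 with no filter, 3852 with the GC trend removed, 542 without both second KI libraries and 922 to 4809 when a library was left out. ERCC scaling split the responses into 616 higher and 5476 lower in KI and 233 higher and 6745 lower in WT cells, against 4356 and 4257 in KI and 2821 and 3435 in WT cells with TMM.

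Responses that turned sign had not passed the test, and their cause was not tested. With ERCC scaling PXDN was at -0.43 and SYK at -0.31 in WT cells, and NFIB at -0.16 in KI cells; with the GC trend removed PXDN was at -0.18 and NFIB at 0.012 in WT cells. When a library was left out, SYK ran from -0.056 to 6.32 in KI cells, NFIB from -0.57 to 0.33 and FAM50B from -1.40 to 4.52 in WT cells, and the difference between responses from -0.56 to 5.82 for SYK, -2.15 to 1.42 for FLRT3 and -3.83 to 2.16 for FAM50B. The extremes for SYK and FAM50B come from groups left with 0 counts and are no bounds. Of the 25 called genes named from the lists and neighbours, 10 lost their call with ERCC scaling and 15 without both second KI libraries.

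Replicate numbers are shared by the groups, but nothing in the labels pairs the libraries, and deviations of same-numbered libraries correlated at -0.00195 to 0.27. With the replicate number as a block, 6 and 3 of the 9 genes were called in the KI and WT responses, as without it, and 8725 and 6765 of all genes. Counts under 40 in the silent line, and 2 libraries a group, limit what can be said of changes there.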
